A study of Homo sapiens with 8 samples.

Results

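The 10 glycolytic enzymes described here are HK1, PFKP, ALDOA, TPI1, GAPDH, PGK1, PGAM1, ENO1, PKM and LDHA. They were chosen by gene name from the 12109 transcripts of the authors' deposited table, each is represented by 1 transcript, and pseudogene transcripts carrying similar names are not members. The table compares human hepatic stellate cells, which produce the matrix of liver scars once they are activated, after silencing of LARP6 with dsiLARP6 or with the control reagent dsi-control. LARP6 is a La-related RNA-binding protein known for binding collagen messages. The 8 libraries formed 4 groups of 2, namely RNA-seq and ribosome profiling of the dsi-control cells (genotype WT) and of the dsiLARP6 cells (genotype LARP6 kd). All were grown in DMEM with serum, the labels call the cells a cell line named HSCs without saying which line, and they do not say whether replicates were separate cultures, so the p-values may cover only technical spread. Of listed cell type markers, 10 of 10 were measured for stellate cells, 2 of 7 for hepatocytes and 1 of 5 for endothelium. For leukocytes and Kupffer cells 2 of 6 were measured, and for biliary and epithelial cells 2 of 4. The table gives no abundance, so these counts alone do not establish the labelled cell type.

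Glycolysis splits glucose into pyruvate in the cytosol. Its first steps spend ATP, its later steps return ATP and reduce NAD+, and lactate dehydrogenase regenerates NAD+ by turning pyruvate into lactate. Activation of stellate cells is known to go along with a shift towards glycolysis and lactate production. Many glycolytic genes are old, strongly transcribed genes from which intronless copies, the processed pseudogenes, have been inserted elsewhere in the genome.

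Ribosome profiling reads out the stretches of RNA covered by ribosomes, called footprints, and translation efficiency is footprints relative to RNA. It is given on a log2 scale relative to the typical transcript, for which it lies near 0. The knockdown efficiency and the change are the authors' values, and the control efficiency was derived here by subtraction. The table holds no value per library, so neither a spread between replicates nor a depth stands beside any value. A level below is an efficiency and not an abundance. Since it is a ratio within 1 transcript, it needs no further division by length, although footprints lie in the coding sequence while RNA reads cover the whole transcript. The sources used here do not give the counted region.

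After LARP6 knockdown, translation efficiency of PKM, pyruvate kinase, was 1.37-fold higher. In the authors' deposited table PKM was the 1 member of the 10 to pass at an adjusted p of 0.05. Across all transcripts 2.20% passed in either direction, 1.07% as higher and 1.12% as lower, and a count of 1 in 10 is too small to set the members apart from this background. The authors' deposited table has an unadjusted p under 0.05 for HK1, ALDOA, ENO1 and PKM, with higher values, and for GAPDH, with a lower value. That is 5 of 10, beside 10.3% of all transcripts in either direction, 5.46% higher and 4.83% lower. The median log2 change of the 10 members was 0.07, beside 0.02 for all transcripts. Of the members 6 lay above 0 and 4 below.

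Because translation starts at the first codon, the bases around it are shown for each member. The start codon is in capitals, with 6 bases before it and 1 after it, read 5′ to 3′ from GENCODE release 29 transcripts on GRCh38.
HK1: gccagcATGa
PFKP: ctcgccATGg
ALDOA: gaccccATGg
TPI1: agcgccATGg
GAPDH: gacaccATGg
PGK1: tccaaaATGt
PGAM1: gccgccATGg
ENO1: ttcaccATGt
PKM: gcagccATGt
LDHA: tccaatATGg
A purine 3 bases before the start codon and a G directly after it are the positions known to favour initiation. The purine was present in 9 of the 10 members. The exception was the ALDOA transcript in the table, and start codons of other ALDOA transcripts were not examined. The purine was present in 87.0% of 10255 protein-coding transcripts of the table. The G was present in 6 of the 10, beside 53.7% of those transcripts. The called member PKM has the purine and lacks the G, as do HK1, PGK1 and ENO1. The 5 members with both ranged from PFKP, which had the highest efficiency of the 10, to GAPDH, which had the lowest. Over all protein-coding transcripts the median control log2 efficiency differed little between those with both features, at 0.03, and the rest, at −0.09.

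A second set of sequences shows how closely copies elsewhere in the genome match these genes. Each pair gives the first 60 coding bases of a member and the best matching stretch of the pseudogene that shares most with it, from GENCODE release 29 on GRCh38, with capitals at the bases that differ.
PGAM1: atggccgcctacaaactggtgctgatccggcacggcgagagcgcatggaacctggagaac
AC012085.1: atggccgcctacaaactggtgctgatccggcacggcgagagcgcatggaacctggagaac
GAPDH: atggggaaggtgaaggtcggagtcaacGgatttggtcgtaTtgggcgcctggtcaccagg
GAPDHP1: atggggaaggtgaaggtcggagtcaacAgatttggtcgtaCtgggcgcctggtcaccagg
PKM: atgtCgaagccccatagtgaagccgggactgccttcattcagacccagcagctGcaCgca
PKMP1: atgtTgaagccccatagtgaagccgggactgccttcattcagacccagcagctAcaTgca
The stretch of PGAM1 (chromosome 10) and that of AC012085.1 (chromosome 12) did not differ at any base. GAPDH (chromosome 12) and GAPDHP1 (chromosome X) differed at 2 of the 60 bases, and PKM (chromosome 15) and PKMP1 (chromosome 1) at 3. A 30-base fragment from the stretch of PGAM1 or PKM can match both places exactly. In the GAPDH stretch the differing bases leave no shared run of 30 bases. Over its whole coding sequence, 30.1% of the 30-base windows of GAPDH are found in GAPDHP1. The sources used here do not say how reads with several matches were counted.

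In the upper pathway, HK1, hexokinase, phosphorylates glucose on entry (chromosome 10, 69318844 to 69401882, GRCh38). Its control log2 efficiency was −0.52 and its deposited knockdown value −0.14. For HK1 the authors' deposited table gives a log2 change of 0.38 (unadjusted p = 0.0427, adjusted p = 0.45), which did not pass. PFKP, the platelet form of phosphofructokinase and so an enzyme of the committed step, lies on chromosome 10 (3067520 to 3136802). It had the highest efficiency of the 10, 0.04 in control and 0.15 in knockdown cells, and the authors' deposited table gives it a log2 change of 0.12 (adjusted p = 0.91). ALDOA, aldolase A, cleaves fructose 1,6-bisphosphate (chromosome 16, 30065761 to 30070414). Its control value of −0.80 stood beside a knockdown value of −0.48, and the authors' deposited table puts the log2 change at 0.32 (unadjusted p = 0.00999, adjusted p = 0.22). The ALDOA transcript in the table encodes 418 residues. All 3 upper enzymes lay above 0, with changes between 0.12 and 0.38 that did not pass the adjusted threshold.

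TPI1, triose phosphate isomerase, interconverts the 3-carbon products of aldolase (chromosome 12, 6867531 to 6870828). Its log2 efficiency was −3.80 in control and −4.59 in knockdown cells. The authors' deposited table lists that change, −0.79, with an unadjusted p of 0.32 (adjusted p = 0.88). TPI1 thus had a larger difference than PKM in size and a larger p.

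GAPDH oxidises glyceraldehyde 3-phosphate and is widely used as a reference gene (chromosome 12, 6533927 to 6538371). It had the lowest efficiency of the members, −5.65 in control and −6.72 in knockdown cells. Only 0.076% of the 10560 protein-coding transcripts had a lower control efficiency. In the authors' deposited table GAPDH also had the lowest log2 change of the members, −1.07 (unadjusted p = 0.0082, adjusted p = 0.20). Of the protein-coding transcripts 3.93% had a lower change than GAPDH. The authors' deposited table gives 2 estimates per transcript and a final one, and its final p is the larger. With the authors' deposited table adjusted on the first estimate's p alone (Benjamini-Hochberg over all transcripts), GAPDH passed as lower (adjusted p = 0.035). That setting called 3.77% of all transcripts, beside 2.20% by the final p. Only 33.9% of the 30-base coding windows of GAPDH are found at no other annotated locus.

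PGK1, phosphoglycerate kinase, makes the first ATP of the pathway (chromosome X, 78104174 to 78129296). The efficiency of PGK1 was −3.05 in control and −3.03 in knockdown cells, and the authors' deposited table shows a log2 change of 0.01 (adjusted p = 0.996). PGAM1, phosphoglycerate mutase, moves the phosphate group of 3-phosphoglycerate (chromosome 10, 97426160 to 97433441). Its efficiency was −3.16 in control and −3.26 in knockdown cells, and the authors' deposited table shows a log2 change of −0.10 (adjusted p = 0.99). For PGAM1 the first estimate was −0.25, the widest gap between the 2 estimates among the members.

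ENO1, enolase, forms phosphoenolpyruvate (chromosome 1, 8861000 to 8878686). Its control and knockdown efficiencies were −1.30 and −0.95. The change of ENO1 in the authors' deposited table was 0.35 on the log2 scale (unadjusted p = 0.00517, adjusted p = 0.15). PKM, pyruvate kinase, makes pyruvate and the last ATP of glycolysis (chromosome 15, 72199032 to 72231206). Its efficiency was −1.95 in control and −1.50 in knockdown cells. In the authors' deposited table PKM rose by 0.45 on the log2 scale (unadjusted p = 0.000358, adjusted p = 0.020), and 82.0% of protein-coding transcripts had a lower change. PKM has alternative M1 and M2 forms, and the table holds 1 transcript for the gene, so a shift between forms cannot be read from it. LDHA, the A subunit of lactate dehydrogenase, reduces pyruvate to lactate (chromosome 11, 18394388 to 18408425). Its efficiency was −3.46 in control and −3.80 in knockdown cells, and the authors' deposited table has a log2 change of −0.34 (adjusted p = 0.88) for it.

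**Figure D1:**
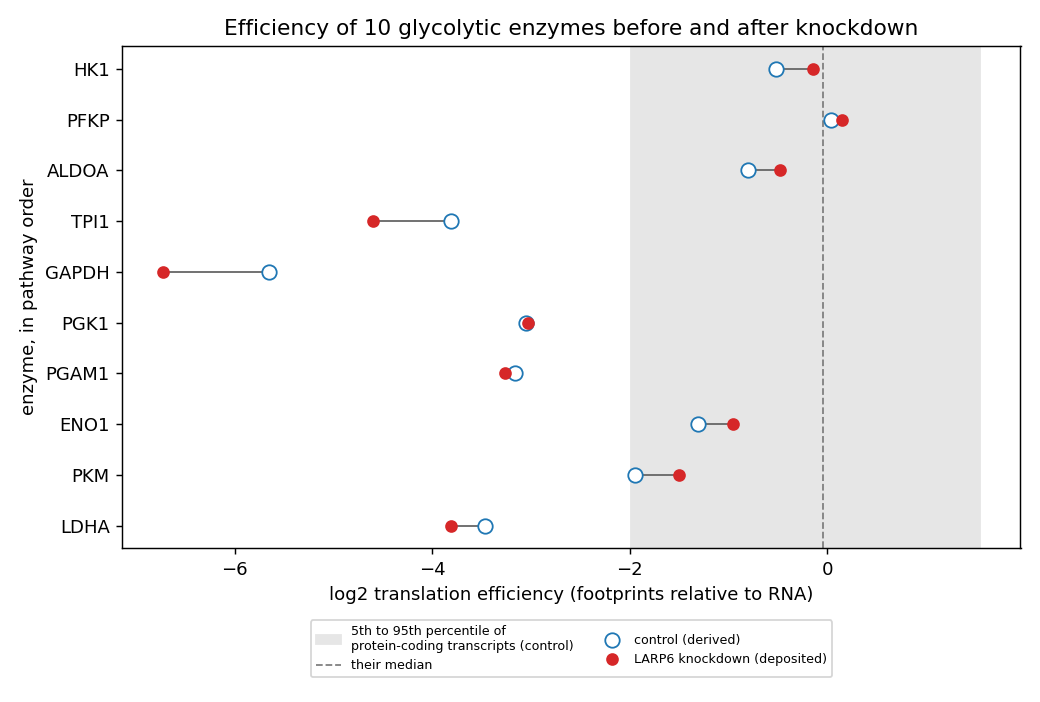
Log2 translation efficiency (horizontal axis, footprints relative to RNA) of the 10 enzymes in pathway order, with open circles for control, filled circles for knockdown, and the central 90% of protein-coding transcripts in grey. TPI1, GAPDH, PGK1, PGAM1 and LDHA lie left of the grey range in both conditions, and GAPDH is lowest at −5.65 and −6.72.

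In order of control efficiency, PFKP was followed by HK1, ALDOA, ENO1, PKM, PGK1, PGAM1, LDHA, TPI1 and GAPDH. Without values per library it cannot be said which neighbours in this order differ beyond their spread. The plot of efficiencies shows a gap between PKM at −1.95 and PGK1 at −3.05. Below that gap lay 5 of the 10 members, each under a control log2 efficiency of −3, whereas 163 of the 10560 protein-coding transcripts (1.54%) lay there. The members spanned the range from −5.65 to 0.04, with a median of −2.50 beside −0.04 for protein-coding transcripts.

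**Figure D2:**
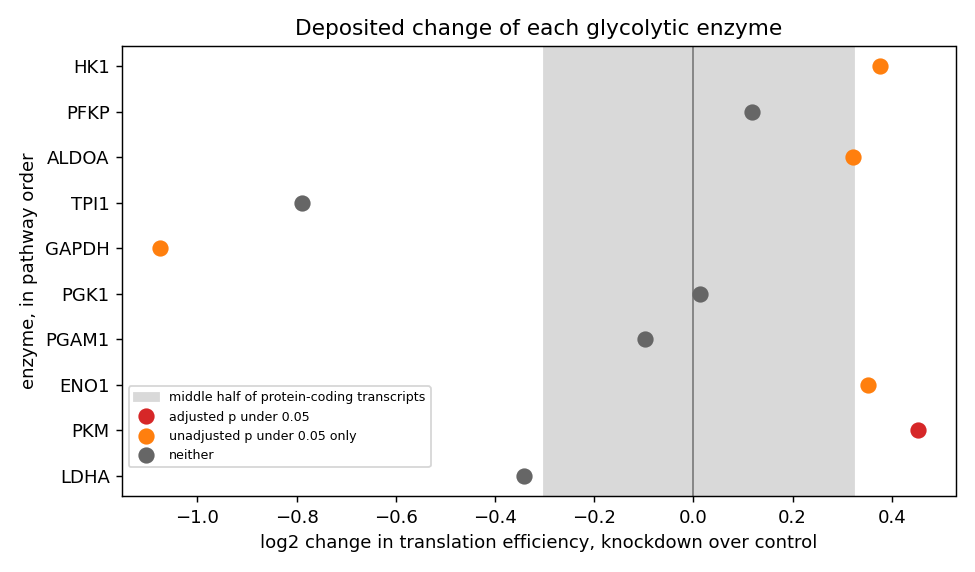
Log2 change in translation efficiency after knockdown (horizontal axis) for each enzyme in pathway order, coloured by whether its adjusted or only its unadjusted p was under 0.05, with the middle range of protein-coding transcripts (25th to 75th percentile) in grey. PKM at 0.45 is the point past the adjusted threshold, and GAPDH at −1.07 lies farthest from 0.

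The members differed in how much of their coding sequence is found elsewhere. For each protein-coding transcript, the share of 30-base windows of its coding sequence that match no transcript of another annotated locus on either strand was counted. This unique share was 99.96% for HK1, 99.7% for PFKP, 91.2% for ALDOA, 81.2% for ENO1 and 78.3% for PKM. It was 69.5% for PGK1, 50.7% for LDHA, 33.9% for GAPDH, 32.7% for TPI1 and 0% for PGAM1. Windows of GAPDH matched 45 other loci, all annotated as pseudogenes, and those of PGAM1 matched 14, of which 13 are pseudogenes. HK1 and PFKP each shared windows with 1 other locus, their paralogs HK2 and PFKL.

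**Figure D3:**
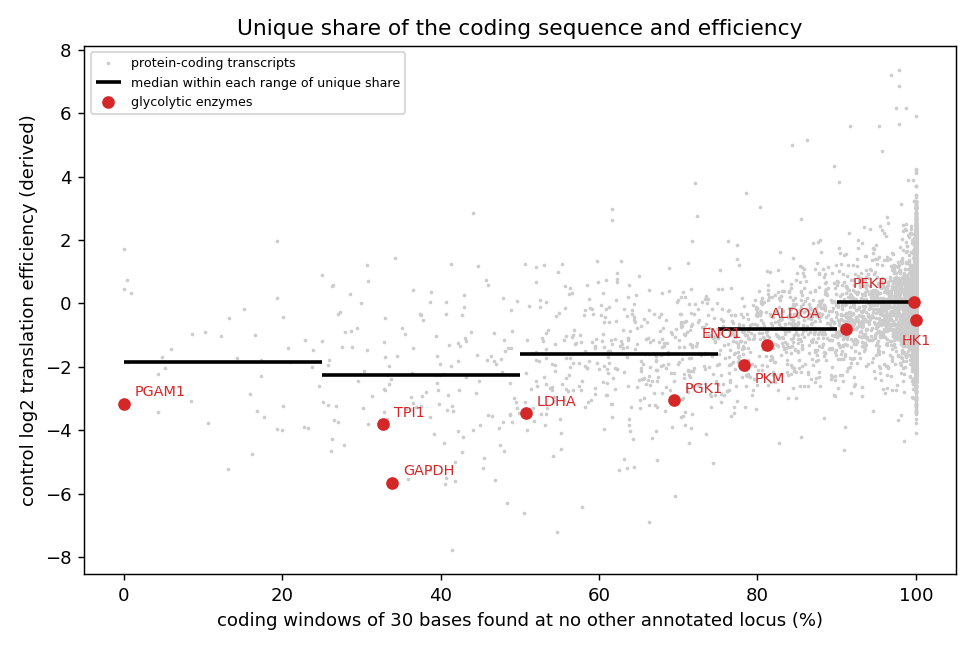
Share of 30-base coding windows found at no other annotated locus (horizontal axis, %) against the derived control log2 translation efficiency (vertical axis), for protein-coding transcripts in grey and the 10 enzymes in red, with bars at the median of each range of unique share. Enzymes above 75% unique lie between −1.95 and 0.04, and the other 5 lie between −5.65 and −3.05.

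The 5 members under 75% unique were the same 5 that lay under a log2 efficiency of −3, and 75% was chosen after these values were seen, with PGK1 nearest below it and PKM nearest above it. The share of the transcript that is coding sequence split the members in the same way. It ran from 25.7% (PGK1) to 60.9% (TPI1) in these 5 and from 68.9% (PKM) to 88.7% (PFKP) in the others. This coding share is that of the 1 annotated transcript matched to each gene, and other transcripts were not examined. Its relation to efficiency over all protein-coding transcripts was not computed. Across the 10 genes, unique share and control efficiency had a Pearson r of 0.80 and a Spearman rho of 0.90. These are genes measured in the same libraries and no independent replicates. Across 10559 protein-coding transcripts the same relation had an r of 0.39 and a rho of 0.31. The median control log2 efficiency was −1.83 for the 41 transcripts under 25% unique and −2.24 for the 147 from 25 to 50%. It was −1.58 for the 381 from 50 to 75%, −0.81 for the 551 from 75 to 90% and 0.05 for the 9439 above. Low efficiency thus went with a low unique share in the whole table, and the low members were lower still than the median of their range. Whether read assignment or the coding share of the transcript plays a part in these levels was not tested.

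The changes after knockdown are given for the same 2 sets, whose bound of 75% was chosen after the values were seen. The 5 members above 75% unique all lay above 0, from 0.12 for PFKP to 0.45 for PKM, with a median of 0.35. The 5 others ranged from −1.07 for GAPDH to 0.01 for PGK1, with a median of −0.34, and none of these 5 passed the adjusted threshold in the authors' deposited table. In this lower set 1 member, GAPDH, had an unadjusted p under 0.05 in the authors' deposited table. There the unadjusted p was 0.32 for TPI1, 0.32 for LDHA, 0.92 for PGAM1 and 0.97 for PGK1. The direction of those changes is therefore uncertain. In the whole table the change did not fall with the unique share. The median log2 change of protein-coding transcripts was −0.07, 0.04, 0.13, 0.10 and 0.01 over the same 5 ranges, and its r with the unique share was −0.01. What did vary was the spread of changes, with an SD across transcripts of 0.80 under 25% unique and 0.60 above 90%.

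Pseudogene transcripts of the members appear in the table as transcripts of their own. There were 10, from ALDOA, TPI1, PGK1, ENO1, PKM and LDHA, and none for HK1, PFKP, GAPDH or PGAM1. Whether these intronless copies are translated was not tested, so footprints relative to RNA at such a transcript cannot be read as a rate of translation. ALDOAP1 had a control log2 efficiency of 8.28 and PKMP5 of 6.07, far above ALDOA and PKM themselves. All 541 pseudogene transcripts of the table had a median control log2 efficiency of 1.20 and reached up to 8.64. ENO1P1 had 0.94, PKMP1 1.76 and ALDOAP2 1.48. In contrast LDHAP4 at −5.13 lay below LDHA, and TPI1P1 at −3.19 lay near TPI1.

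**Figure D4:**
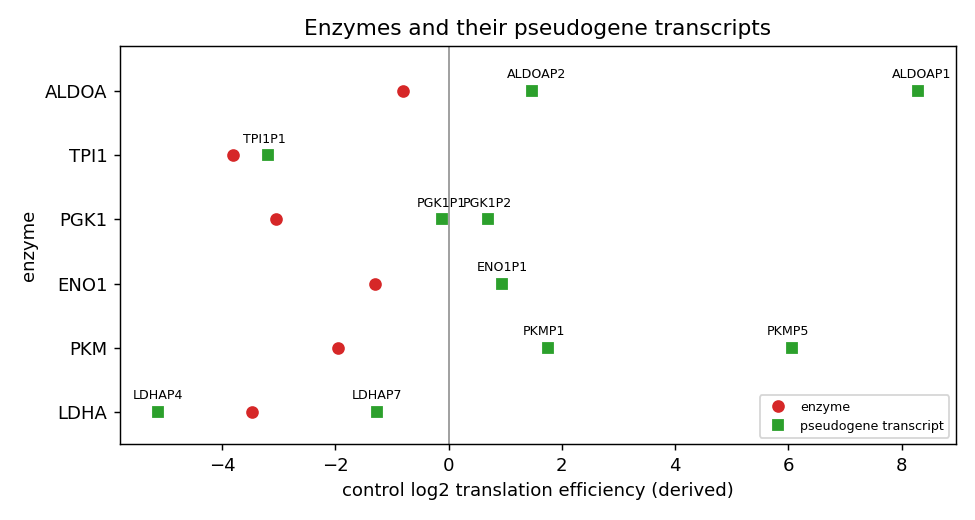
Derived control log2 translation efficiency (horizontal axis) of the 6 enzymes with pseudogene transcripts in the table (red circles) and of those 10 pseudogene transcripts (green squares, named). Of the 10 squares 9 lie to the right of their enzyme, the exception being LDHAP4 at −5.13.

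None of these 10 transcripts passed the adjusted threshold in the authors' deposited table, and 1, ENO1P1, had an unadjusted p under 0.05 (log2 change 0.59, unadjusted p = 0.0201). The first estimate alone called 0 of them. Over all transcripts these shares were 2.20%, 10.3% and 3.77%, so counts of 0, 1 and 0 in 10 do not stand apart from this background. Of the 10 pseudogene transcripts 9 lay above 0, with a median log2 change of 0.40, whereas 272 of all 541 pseudogene transcripts lay above 0, with a median of 0.04. For PKMP5, a copy of PKM, the authors' deposited table gives a log2 change of 1.48, with a p of 0.464 by the first method and 8.8e-06 by the second. The authors' deposited table gives PKMP1, which shares the most coding windows with PKM, a log2 change of 0.04 (adjusted p = 0.99).

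The transcripts of the members are compact. Their median length was 2097 bases beside 3059 for protein-coding transcripts, and 2 of the 10 were longer than that, HK1 and PGK1. Leaders before the start codon had a median of 132 bases beside 185, from 36 in TPI1 to 666 in GAPDH. The coding sequence made up 25.7% of the PGK1 transcript, 41.3% of LDHA and 41.8% of PGAM1, but 88.7% of PFKP. GC content of the whole transcript had a median of 55.1% beside 49.3%, with PGK1 and LDHA as the exceptions at 43.3% and 44.0%.

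A list of isozymes and relatives of the members had 22 genes, of which 10 were measured. Of these 10 relatives 0 passed the adjusted threshold of the authors' deposited table, as with the first estimate alone, and 3 had an unadjusted p under 0.05, all higher, beside 10.3% of all transcripts in either direction and 5.46% higher. These 3 were GPI, the isomerase between hexokinase and phosphofructokinase, with a log2 change of 0.33, the muscle phosphofructokinase PFKM with 0.54, and LDHB, the other lactate dehydrogenase subunit, with 0.66 (unadjusted p = 0.00926, adjusted p = 0.21), all from the authors' deposited table. The remaining values in the authors' deposited table were 1.21 for hexokinase HK2, 0.57 for aldolase ALDOC, 0.55 for enolase ENO2, 0.32 for PGAM5, a mitochondrial protein phosphatase related by family and not by step, 0.31 for the liver phosphofructokinase PFKL, 0.06 for the ADP-dependent glucokinase ADPGK and −0.38 for BPGM, which makes 2,3-bisphosphoglycerate. Of the 10 relatives 9 lay above 0, with a median of 0.44, beside 6146 of all 12109 transcripts and a median of 0.02. Without PGAM5 these were 8 of 9, with a median of 0.54. LDHB lay above 0 and LDHA below it, and their unique shares were 85.8% and 50.7%. HK2, with a unique share of 64.4%, nevertheless had the highest change of the relatives, 1.21. The control efficiency of HK2 was −5.16, while that of HK1 was −0.52.

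In the pathways that feed and drain glycolysis, 10 lists including these relatives held 146 genes, of which 114 were measured. Of the 114 genes, 3 passed the adjusted threshold of the authors' deposited table (2.63%, beside 2.20% of all transcripts). All 3 were lower, and over all transcripts 1.12% passed as lower and 1.07% as higher. A count of 3 is too small to set these lists, or a direction within them, apart from this background. At an unadjusted p under 0.05 there were 18 genes (15.8%), beside 10.3% of all transcripts. SLC16A1, the monocarboxylate transporter that carries lactate and pyruvate, fell in the authors' deposited table by 0.77 on the log2 scale (adjusted p = 0.0314). TXNIP, an inhibitor of glucose uptake, was 2.39-fold lower in the authors' deposited table (adjusted p = 0.000397). UGDH, which draws UDP-glucose into UDP-glucuronate for glycosaminoglycans, was 2.06-fold lower in the authors' deposited table (adjusted p = 1.3e-09). The coding sequences of all 3 are 100% unique at 30 bases.

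**Figure D5:**
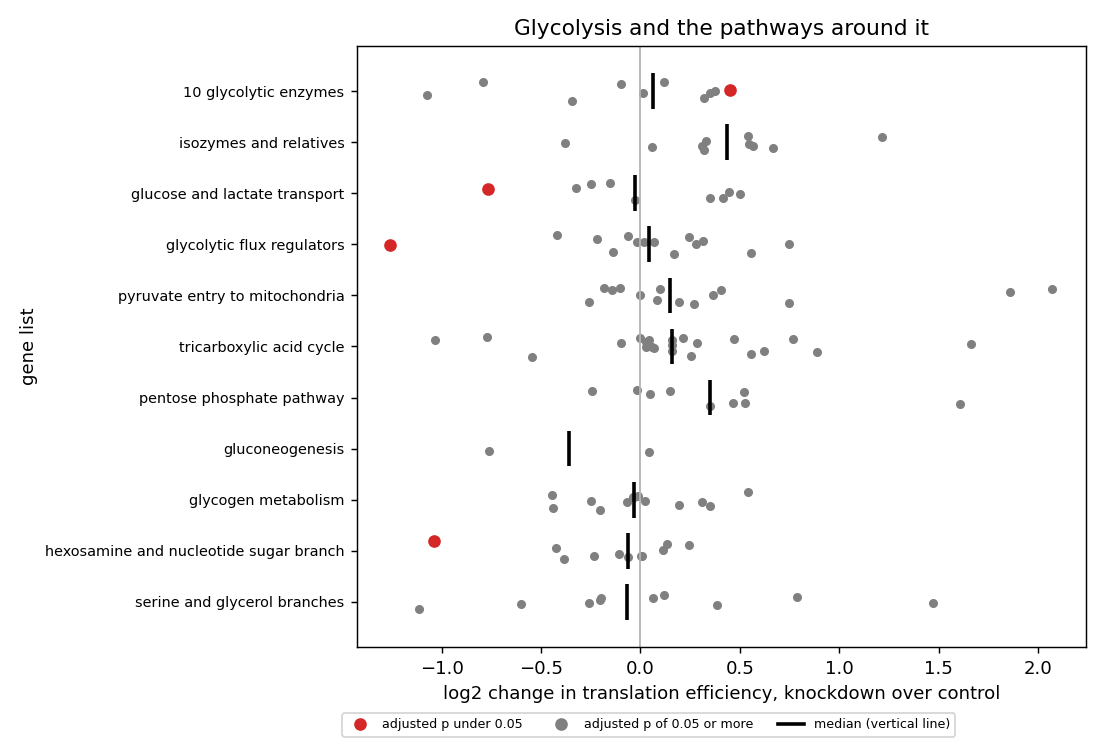
Log2 change in translation efficiency after knockdown (horizontal axis) of the 10 enzymes and of each measured gene in 10 lists around glycolysis, with 1 point per gene, red where the adjusted p was under 0.05, and a vertical line at each median. PKM is the red point at 0.45, and SLC16A1, TXNIP and UGDH are the red points below 0.

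By list, 1 of 9 genes of glucose and lactate transport passed, with SLC2A6 highest at 0.50. Among 14 regulators of glycolytic flux 1 passed, and PFKFB3, which makes the activator of phosphofructokinase, was highest in the authors' deposited table at 0.75 (adjusted p = 0.67). Of 11 genes of the hexosamine and nucleotide sugar branch 1 passed, with GMPPB highest at 0.25. No gene passed in the authors' deposited table among 14 of pyruvate entry to mitochondria, 22 of the tricarboxylic acid cycle, 9 of the pentose phosphate pathway, 2 of gluconeogenesis, 13 of glycogen metabolism or 10 of the serine and glycerol branches. At an unadjusted p under 0.05 these 6 lists had 1, 2, 3, 1, 2 and 1 genes, beside 10.3% of all transcripts. The first estimate alone called 1, 1, 1, 0, 0 and 1, beside 3.77% of all transcripts. Their extremes in the authors' deposited table were PDP2 at 2.07 and MPC1 at −0.26 for pyruvate entry, SUCLA2 at 1.66 and ME3 at −1.03 for the cycle, and PRPS2 at 1.61 and PRPS1 at −0.24 for the pentose phosphate pathway. They were G6PC3 at 0.04 and PCK2 at −0.76 for gluconeogenesis, PHKG2 at 0.54 and PYGL at −0.45 for glycogen, and GPD1L at 1.47 and PSAT1 at −1.11 for the serine and glycerol branches in the authors' deposited table. The pentose phosphate list had the highest median of these 6, 0.35, and gluconeogenesis, with its 2 genes, the lowest at −0.36.

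Of the stellate cell markers 8 of 10 passed the adjusted threshold of the authors' deposited table, beside 2.20% of all transcripts. COL1A1, COL1A2, COL3A1, ACTA2, PDGFRB, LUM and DCN passed as lower, by changes from −1.11 for ACTA2 to −0.42 for COL1A2, and VIM passed as higher at 0.40 in the authors' deposited table. Markers of other liver cells had 0 passing in the authors' deposited table, by the first estimate alone and at an unadjusted p under 0.05. The shares of all transcripts were 2.20%, 3.77% and 10.3%. With 2 hepatocyte, 1 endothelial, 2 leukocyte and Kupffer cell and 2 biliary and epithelial markers measured, 0 does not set them apart from these shares. The extremes of these markers were APOA1 at −1.25 and SERPINA1 at 0.59 for hepatocytes, VWF at 0.58 for endothelium, CD14 at 0.09 and CD68 at 0.10 for leukocytes and Kupffer cells, and KRT7 at −0.26 and KRT19 at 0.30 for biliary cells in the authors' deposited table.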

How the data were processed

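The values are the authors' own comparison, deposited as 1 table. Per the file headers it holds log2 changes of translation efficiency by 2 methods and a final one, the knockdown log2 efficiency, and the p-value of each method beside final and adjusted ones, all deposited by the authors; it has no counts, so depth is unknown. Per the submitters' processing notes, cutadapt, Bowtie, hg38 and GRCh38 were used. The sources used here do not give their versions, the program behind the comparison or the counting of reads with several matches. The table used here has no column per library, so the count model in the design was not run, and calls rest on the authors' adjusted p of 0.05.

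Computed here in Python 3.11.15 (pandas 2.3.3, scipy 1.17.1) were control efficiency (the knockdown value less the change by the second method), medians, Benjamini-Hochberg adjustment for alternatives (tested on simulated data), and exact 30-base sharing against GENCODE 29 transcripts. Genes overlapping on the genome count as 1 locus, and copies with mismatches are not seen. Of 12109 transcripts 11590 matched GENCODE by the last digits of their identifier, including all 10 members. Members, gene lists and alternatives were chosen with earlier results of these data known. Named genes are the members, all measured relatives, and each other list's called, highest and lowest genes; pseudogenes were chosen by shared windows or name. Alternatives were other thresholds, each method alone, protein-coding transcripts alone, other centring and subsets of members.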

Additional observations from a re-analysis of the deposited data

How the results depend on the processing

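PKM kept its direction and its call with each method alone, at an adjusted p under 0.1 and when adjusted over protein-coding transcripts. The count of members called was 0 at an adjusted p under 0.01, 0 with a minimum of 1.5-fold, and 2 with method 1 alone, where GAPDH joined PKM; over all transcripts method 1 alone called 457 (263 higher) in place of 266. The members' median log2 change of 0.07 was 0.05 after subtracting the median of all or of protein-coding transcripts (0.0505 and 0.0485) and 0.0101 for members without a pseudogene transcript in the table. It was 0.35 for members at least 75% unique and −0.34 for those under 75%, a split chosen after seeing the data. With windows of 25 bases in place of 30, also added then, r between unique share and control efficiency over the members was 0.86. No paired analysis was possible because the table holds no value per library, and for the same reason the edgeR and DESeq2 fits, the low-count filter and the runs without each replicate were not run. Depth is unknown, so which members were too shallow to be called cannot be said.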
